A study of Mus musculus with 16 samples.

Results

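The comparison described here is that of microglia/macrophages lacking the vitamin D receptor with those keeping it, 3 days after experimental stroke. Its members are the 8 RNA libraries made after transient middle cerebral artery occlusion (MCAO), of 16 libraries in the series, and all genes counted in them. The groups sequenced were MCAO Vdr-cKO (4 libraries), MCAO control (4 libraries), sham Vdr-cKO (3 libraries) and sham control (5 libraries). Vdr-cKO mice were male Cx3cr1CreER/+; Vdrf/f mice and controls were male Vdrf/f littermates, all on C57BL/6, aged 10 to 12 weeks and given tamoxifen before surgery. The Cre recombinase is an inducible form driven from the Cx3cr1 locus, so it acts in microglia and in the macrophages and monocytes that express Cx3cr1, and Vdr-cKO mice alone carry it and have 1 disrupted Cx3cr1 allele. Vdr loss, Cre and the loss of a Cx3cr1 allele therefore cannot be told apart in this comparison. The study's methods describe isolation with CD11b beads and poly-A selection, whereas the descriptions given to GEO name a flow sort of CD11b+CD45int cells and rRNA depletion. A CD45int gate is meant to leave out cells high in CD45, such as infiltrating monocytes and lymphocytes, and beads against CD11b would keep monocytes, so the marker levels of such cells are given below. Neither source says whether 1 library came from 1 mouse, so p-values measure the spread between libraries only. Total counts were 16457565 to 17836796 in MCAO Vdr-cKO libraries and 15546795 to 16607574 in MCAO control libraries. Levels are given as CPM, counts per 1000000 after scaling by library size and TMM factors, and per-library values run from replicate 1 to replicate 4 of the group named. A gene is said to have risen or fallen in Vdr-cKO libraries where its adjusted p was under 0.05 in edgeR's quasi-likelihood test, and it is called a differentially expressed gene (DEG) where the absolute log2 fold change was also above 1.

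The vitamin D receptor is a nuclear receptor that binds DNA together with a retinoid X receptor after it has bound the active form of vitamin D, and in macrophages it is known for restraining inflammatory transcription. Type I interferons signal through a receptor pair and the kinases JAK1 and TYK2 to STAT2, which joins IRF9 in a complex that binds the interferon-stimulated response element (ISRE) in front of antiviral genes. Interferon-gamma acts on a related route through the gamma-activated site (GAS), and it is known for inducing guanylate-binding proteins, immunity-related GTPases and class II antigen presentation.

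The targeted gene was measured first. Vdr (ENSMUSG00000022479, chromosome 15 of GRCm38 from 97854425 to 97910630) had 119, 51, 28 and 22 counts in MCAO Vdr-cKO libraries, against 51, 26, 21 and 43 counts in MCAO control libraries. At 8.23, 3.24, 1.67 and 1.47 CPM in Vdr-cKO libraries, against 3.397, 1.72, 1.48 and 2.91 CPM in control libraries, the groups overlapped (2-sided exact permutation test, p = 0.657; 0.0286 is the smallest p that groups of 4 allow). The highest Vdr value of all stood in a Vdr-cKO library. Which exons the deletion removes is not given in the sources used here, and counts per gene can take in reads of exons that remain, so these counts do not check the deletion and the groups rest on the labels. Cx3cr1 (ENSMUSG00000052336, chromosome 9 of GRCm38 from 119901616 to 120069879), the fractalkine receptor whose locus holds the Cre, stood at 818, 815, 966 and 1046 CPM in Vdr-cKO libraries, against 2223, 2309.7, 2275 and 2211 CPM in control libraries. All Vdr-cKO libraries lay below all control libraries, with a log2 fold change of -1.29 ± 0.10 (SE) and an adjusted p of 4.04e-05 from edgeR. This level separated the libraries as the labels do, while it does not measure the deletion of Vdr. Defining markers of microglia were high in both groups, with Tmem119 at 899.7, 816, 1129 and 1212 CPM in Vdr-cKO libraries, against 761, 685, 806 and 677 CPM in control libraries. It did not pass in edgeR (log2 fold change 0.48, edgeR adjusted p = 0.0599, DESeq2 adjusted p = 0.00622). Markers of neurons (3 of 10 passed the filter on low counts) summed to 5.53 to 6.60 CPM in Vdr-cKO libraries and 6.36 to 7.94 CPM in control libraries, and those of T and NK cells (2 of 16 passed) to 7.61 to 30.0 CPM in Vdr-cKO libraries and 3.66 to 7.38 CPM in control libraries. Markers of dendritic cells summed to 1260 to 1460 CPM in Vdr-cKO libraries and 956 to 1121 CPM in control libraries, with 2 of 10 risen (Xcr1 and Bst2). Bst2, which is also counted below among antiviral effectors, is part of that sum. Its mean level alone was 396 CPM higher in Vdr-cKO libraries, and a sum without it was not taken. Markers of neutrophils summed to 1846 to 2255 CPM in Vdr-cKO libraries and 1771 to 2798 CPM in control libraries, with 0 of 12 tested called by edgeR. Those of B cells (3 of 8 passed the filter, 0 called) summed to 171 to 248 CPM in Vdr-cKO libraries and 188 to 221 CPM in control libraries. No marker gene of these lists was at 0 in all 8 libraries, and the part of other cells in the changes below was not tested.

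After MCAO, 256 genes were DEGs with a higher level in Vdr-cKO libraries (1.67% of 15286 genes tested) and 12 were DEGs with a lower level (0.0785%). By adjusted p alone 495 genes rose (3.24%) and 250 fell (1.64%). Counts of list members that rose or fell are to be read beside these shares. The changes were unequal in size, since the median log2 fold change was 1.03 among genes that rose and -0.46 among genes that fell, while it was 0.01 over all genes tested. The count of genes that fell was the less steady, at 103 without control replicate 4, 111 without control replicate 3 and 139 without Vdr-cKO replicate 3 and, separately, without control replicate 2. Every Vdr-cKO library was above every control library for 253 of the 256 higher DEGs, a pattern shown by 6.05% of all genes tested, while 7.51% had every Vdr-cKO library below. The 256 were picked on these same 8 libraries, so the 253 follow largely from that selection and are no separate evidence. Of the 256, DESeq2 called 248 in the same direction at an adjusted p under 0.05 and limma-voom called 230. Genes fixed in 11 interferon-induced families made up 79 of the 256, and 214 of the 256 were protein-coding.

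**Figure D1:**
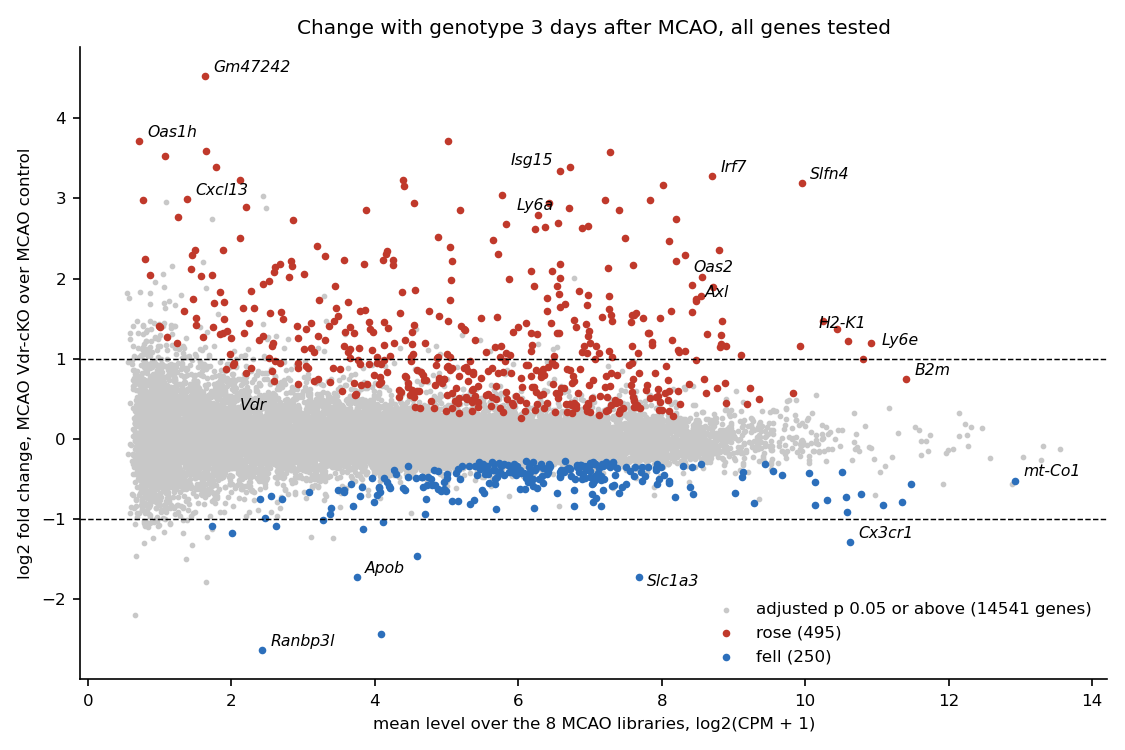
Change with genotype after MCAO against level for the 15286 genes tested. The horizontal axis is the mean level over 8 libraries as log2(CPM + 1), the vertical axis the log2 fold change of Vdr-cKO over control, red and blue points are genes that rose (495) and fell (250), and dashed lines mark the fold threshold of the DEGs. Higher DEGs such as Irf7 (3.28) and Slfn4 (3.19) reach high levels, and few blue points pass the lower dashed line.

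The 15 higher DEGs with the greatest fold change among those whose groups did not overlap held several genes at low levels. Gm47242 stood at 7.61, 5.08, 1.55 and 1.999 CPM in Vdr-cKO libraries, against 0.133, 0.331, 0.141 and 0.0676 CPM in control libraries, with a log2 fold change of 4.53 ± 0.66 (SE) and an adjusted p of 0.00195 from edgeR. It lies within A330040F15Rik on the same strand, as does Gm6545 (log2 fold change 3.23), so their reads may be shared. Gm13822 (log2 fold change 3.6) is annotated antisense to Oasl1, and with the strand of counting not given in the sources used here, the reads of both cannot be told apart. Npsr1, the neuropeptide S receptor, rose by 3.53 at 2.77, 1.91, 1.31 and 2.13 CPM in Vdr-cKO libraries, against 0.133, 0.0661, 0.141 and 0.338 CPM in control libraries. Hmcn2, an extracellular hemicentin, had 5.39, 3.81, 4 and 4.797 CPM in Vdr-cKO libraries, against 0.333, 0.529, 0.703 and 0.135 CPM in control libraries (log2 fold change 3.4, adjusted p = 0.000239 from edgeR). The others at this end of the ranking were interferon-induced genes or members of their families (Oas1h, Ifit1bl1, Oasl1, Isg15, Irf7, Ifi214, Slfn4, Rsad2 and Ifi44) and Ly6c2, a surface protein of inflammatory monocytes.

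Among regulators of the interferon response, transcription factors at the end of the pathway rose and the receptors did not. Irf7 (ENSMUSG00000025498, chromosome 7 of GRCm38 from 141262706 to 141266481), the factor that amplifies interferon production, had 1129, 794, 529 and 571 CPM in Vdr-cKO libraries, against 91.8, 80.3, 78.9 and 63.2 CPM in control libraries. Each Vdr-cKO library held several times the level of any control library, and the log2 fold change was 3.28 ± 0.23 (SE, edgeR adjusted p = 2.2e-05). Stat2 had 718, 621, 409 and 428 CPM in Vdr-cKO libraries, against 154, 181, 168 and 153 CPM in control libraries (log2 fold change 1.74, adjusted p = 0.000151 from edgeR). Replicates 1 and 2 of Vdr-cKO were the highest for both genes, and no library of one group reached the other group. Irf9, the DNA-binding partner of STAT2, rose less, with 175, 169.9, 154 and 155 CPM in Vdr-cKO libraries and 95.9, 108, 97.3 and 95.96 CPM in control libraries (log2 fold change 0.73, adjusted p = 0.000237 from edgeR). Irf1 (log2 fold change 0.76) and Irf5 (log2 fold change 0.36) rose as well, so that 4 of 10 interferon regulatory factors tested did. Calls lost in some fits that left out 1 library were those of Irf1 (adjusted p = 0.107 without control replicate 4, 3 of 8 omissions) and Irf5 (adjusted p = 0.132 without control replicate 4, 7 of 8 omissions), all from edgeR. The median log2 fold change of 17 interferon receptors, JAKs and STATs tested was 0.07, and values for the type I receptor chain Ifnar1 (-0.19), the interferon-gamma receptor chain Ifngr1 (-0.26) and the kinase Tyk2 (0.22) had adjusted p-values of 0.208, 0.19 and 0.148 from edgeR. Among 12 negative regulators tested, 2 rose. Usp18, which blocks the type I receptor, had 207, 154, 98.03 and 106 CPM in Vdr-cKO libraries, against 25.2, 23.1, 22.1 and 20.8 CPM in control libraries (log2 fold change 2.64, adjusted p = 4.96e-05 from edgeR). Socs1, an inhibitor of JAK kinases, had 18.4, 8.51, 7.82 and 5.66 CPM in Vdr-cKO libraries, against 3.53, 2.12, 1.76 and 1.28 CPM in control libraries (log2 fold change 2.22, adjusted p = 0.00732 from edgeR). The interferons themselves were scarcely counted. Of 9 interferon genes listed 5 were found in the table and 0 passed the filter on low counts, with summed levels of 0.179 to 1.94 CPM in Vdr-cKO libraries and 0 to 0.27 CPM in control libraries. Ifng had 1 count in Vdr-cKO replicate 4 and none elsewhere, so no comparison of it was possible at this depth.

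The 2'-5' oligoadenylate synthetases, which sense double-stranded RNA and activate RNase L, rose as a family, with 9 of 10 members tested called and a median log2 fold change of 2.32. Oas2 (ENSMUSG00000032690, chromosome 5 of GRCm38 from 120730333 to 120749853) had 575, 603, 484 and 448 CPM in Vdr-cKO libraries, against 108, 117, 117 and 94.5 CPM in control libraries. It had one of the narrower spreads among these genes and a log2 fold change of 2.29 ± 0.12 (SE) and an adjusted p of 3.93e-06 from edgeR. Oasl2 (955, 879, 527 and 610.3 CPM in Vdr-cKO libraries, against 136, 154, 144 and 152 CPM in control libraries) and Oas1g (117, 126, 70.3 and 71.4 CPM in Vdr-cKO libraries, against 16.5, 14.6, 15.8 and 13.5 CPM in control libraries) rose by 2.36 and 2.69 on the log2 scale. Oas1a and Oas1b, paralogs of Oas1g in the same cluster of chromosome 5, had log2 fold changes of 1.78 and 1.86, and reads of these near-identical copies may have been split between them. The summed level of the family and of RNase L was 1679 to 2952 CPM in Vdr-cKO libraries and 509.9 to 540.9 CPM in control libraries.

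All 6 IFIT genes tested, whose proteins bind foreign RNA and block its translation, rose, with a median of 2.93. Ifit1 had 309.8, 227, 87.5 and 104 CPM in Vdr-cKO libraries, against 26.4, 26.2, 27.8 and 19.7 CPM in control libraries, Ifit2 had 943, 537, 254 and 310.5 CPM in Vdr-cKO libraries, against 77.9, 85.8, 79.8 and 65.3 CPM in control libraries and Ifit3 had 685, 444, 211 and 279 CPM in Vdr-cKO libraries, against 54.5, 55.2, 51.02 and 46.5 CPM in control libraries. Replicate 1 of Vdr-cKO was highest for 5 of the 6 and replicate 3 lowest for 5 of the 6, yet the lowest Vdr-cKO value of each of these 3 genes was above the highest control value. Their log2 fold changes were 2.87 (adjusted p = 0.000781), 2.74 (adjusted p = 0.000858) and 2.98 (adjusted p = 0.000219, all from edgeR). Ifit1bl1 spread most, at 135, 69.7, 13.1 and 15.4 CPM in Vdr-cKO libraries, against 9.99, 2.91, 2.81 and 2.16 CPM in control libraries (log2 fold change 3.71, adjusted p = 0.0183 from edgeR). Its call was lost in some fits that left out 1 library, as Ifit1bl1 (adjusted p = 0.0765 without control replicate 4, 3 of 8 omissions) shows.

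**Figure D2:**
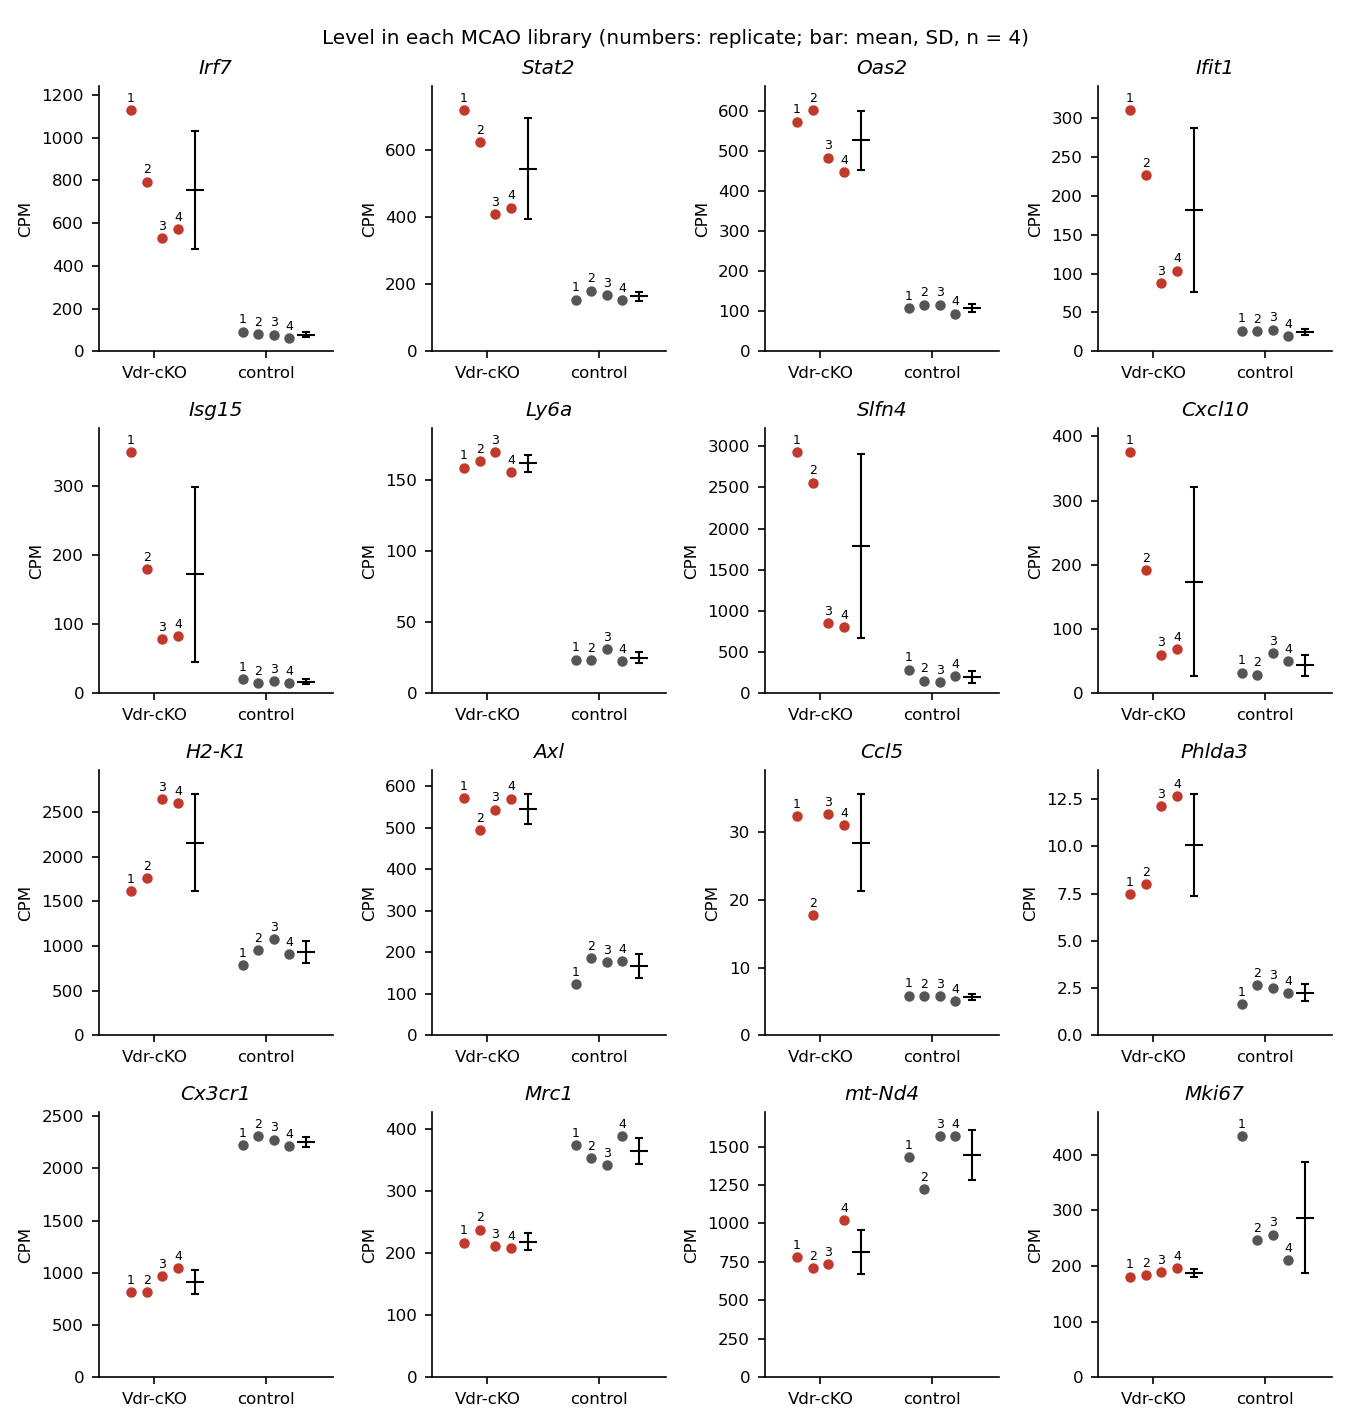
Level of 16 genes in each MCAO library, Vdr-cKO left and control right, with CPM on a linear vertical axis starting at 0. Numbers give the replicate and black bars the mean and SD (n = 4). The control libraries of Irf7, Isg15 and Ifit1 lie close together, the Vdr-cKO libraries spread with replicates 1 and 2 highest, and Ly6a and Axl show 4 Vdr-cKO libraries at nearly one level.

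The machinery that attaches the ubiquitin-like protein ISG15 to other proteins rose in 5 of 6 members tested. Isg15 had 349.8, 180.5, 78.2 and 83.1 CPM in Vdr-cKO libraries, against 21.1, 14.5, 17.99 and 15.1 CPM in control libraries (log2 fold change 3.34, adjusted p = 0.00106 from edgeR). Its activating enzyme Uba7 had 469, 399, 381 and 373 CPM in Vdr-cKO libraries, against 168, 209.8, 189.5 and 193 CPM in control libraries (log2 fold change 1.11, adjusted p = 8.66e-05 from edgeR). The conjugating enzyme Ube2l6 (log2 fold change 1.76) and the ligase Herc6 (log2 fold change 1.64) rose by amounts between these. Guanylate-binding proteins, which attack the membranes of intracellular pathogens, rose in 6 of 8 tested (median 1.44). Gbp2 had 224, 116, 62.1 and 60.4 CPM in Vdr-cKO libraries, against 26.3, 25.5, 29.7 and 28.1 CPM in control libraries (log2 fold change 2.09, adjusted p = 0.00611 from edgeR), and Gbp6, at lower levels, had 12.9, 11.6, 8.78 and 10.3 CPM in Vdr-cKO libraries, against 1.87, 1.79, 1.41 and 1.56 CPM in control libraries (log2 fold change 2.73, adjusted p = 2.18e-05 from edgeR). Gbp4, Gbp8 and Gbp9 overlap one another in the annotation, and their separate values (2.23, 1.49 and 1.39 on the log2 scale) are uncertain for that reason. All 11 immunity-related GTPases tested rose (median 1.47). Tgtp2 had 27.7, 27.7, 18.9 and 21.5 CPM in Vdr-cKO libraries, against 3.33, 4.101, 2.81 and 3.11 CPM in control libraries (log2 fold change 2.85, adjusted p = 8.66e-06 from edgeR), Iigp1 rose by 2.4 and Irgm1 by 1.47.

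The Ifi200 family on chromosome 1, which includes DNA sensors with a pyrin or HIN domain, rose in 9 of 11 members tested (median 2.16). Ifi204 had 781, 654, 404 and 474 CPM in Vdr-cKO libraries, against 155, 178, 177 and 168 CPM in control libraries (log2 fold change 1.78, adjusted p = 0.000185 from edgeR). Ifi213 had the larger change, with 333, 339.9, 177 and 190.4 CPM in Vdr-cKO libraries, against 33.4, 34.6, 37.2 and 28.3 CPM in control libraries (log2 fold change 2.98, adjusted p = 2.78e-05 from edgeR). Antiviral effectors of membranes and replication rose in 14 of 16 tested (median 1.52). Bst2, the tetherin that holds budding virions, had 639, 521, 483 and 519 CPM in Vdr-cKO libraries, against 135, 163, 142 and 139.5 CPM in control libraries and was among the tightest (log2 fold change 1.91, adjusted p = 3.93e-06 from edgeR). Rsad2, which makes the antiviral nucleotide ddhCTP, had 998, 471, 182 and 199 CPM in Vdr-cKO libraries, against 62.9, 45.4, 49.4 and 50.4 CPM in control libraries (log2 fold change 3.16, adjusted p = 0.00265 from edgeR). Ifitm3, a membrane protein that blocks viral entry, had 797, 689.5, 427 and 509 CPM in Vdr-cKO libraries, against 159, 137, 158 and 151 CPM in control libraries (log2 fold change 2.02, adjusted p = 7.74e-05 from edgeR). PARP genes with the ligase Dtx3l rose in 7 of 9 tested (median 1.07), among them Parp12 (log2 fold change 1.32), Parp9 (log2 fold change 1.07) and Dtx3l (log2 fold change 1.1). All 8 Schlafen genes tested rose (median 1.45). Slfn4, a Schlafen gene of mouse myeloid cells, had the largest difference of mean CPM of all genes that rose, at 2928, 2558, 854 and 802 CPM in Vdr-cKO libraries, against 289, 156, 137 and 209 CPM in control libraries (log2 fold change 3.19, adjusted p = 0.00138 from edgeR). Among TRIM genes 11 of 15 rose (median 0.87), with Trim30a at 701, 775, 544 and 608 CPM in Vdr-cKO libraries, against 285, 309, 301 and 291 CPM in control libraries (log2 fold change 1.16, adjusted p = 0.000121 from edgeR). Of 12 cytosolic nucleic acid sensors 8 rose (median 1.37). Zbp1, which senses Z-form nucleic acid, had 434, 316, 214 and 245 CPM in Vdr-cKO libraries, against 49.9, 63.9, 52.4 and 49.2 CPM in control libraries (log2 fold change 2.5, adjusted p = 4.53e-05 from edgeR). The RNA helicases Ddx58, known as RIG-I, and Dhx58 rose by 1.54 and 1.62, and Nlrc5, the transactivator of class I genes, by 1.45.

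Over these 11 families together, 94 of 112 genes tested rose and 0 fell (0 also by DESeq2 and by limma-voom, and 1 at an unadjusted p under 0.05), against 3.24% and 1.64% of all genes, and their counts made up 2.79, 2.39, 1.53 and 1.56% of all counts in Vdr-cKO libraries and 0.724, 0.729, 0.720 and 0.694% in control libraries. The lists were chosen with earlier results of these data known, so the counts describe the members and are no independent evidence of a direction.

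**Figure D3:**
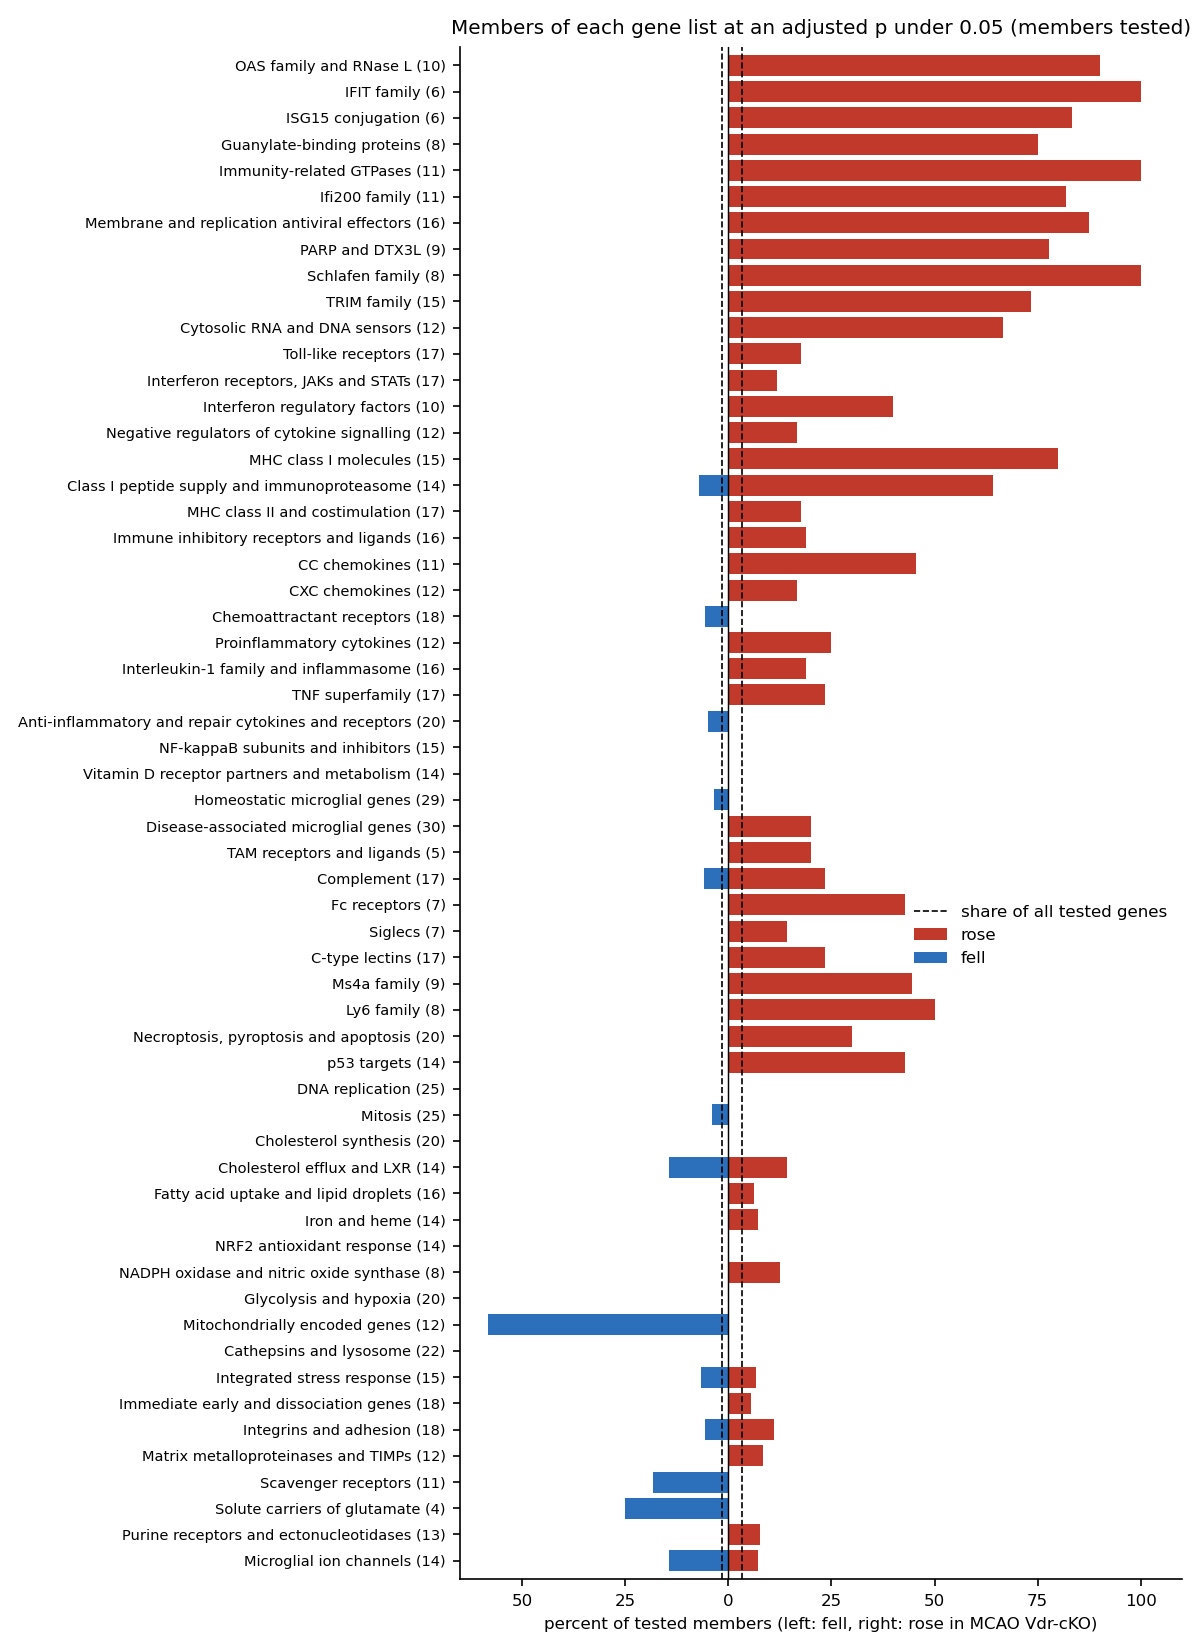
Percent of tested members of each functional list that rose (red, to the right) or fell (blue, to the left) at an adjusted p under 0.05, with the number of members tested in brackets. Dashed lines mark 3.24% and 1.64%, the shares over all 15286 genes. Interferon-induced families and MHC class I molecules (12 of 15) show the longest red bars, and mitochondrially encoded genes (7 of 12) the longest blue bar.

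The sequences upstream of these genes were read from RefSeq promoter windows on GRCm38.p6 (250 bases before the start), which were matched by symbol for 10788 of 15274 symbols tested. The ISRE core was searched as GAAANNGAAA on both strands, the other strand reading TTTCNNTTTC. It was found upstream of 48 of 174 higher DEGs with a window (27.6%) and of 2 of 8 lower DEGs (25%), a share that rests on few genes. By adjusted p alone it was upstream of 69 of 366 genes that rose (18.9%) and of 4 of 190 genes that fell (2.11%), against 363 of 10788 genes tested (3.36%) and 936 of 27025 windows of all genes (3.46%). Within the 11 interferon-induced families 40 of 86 genes had it (46.5%). The GAS, searched as TTCNNNGAA, which reads the same on both strands, was upstream of 19 of 174 higher DEGs (10.9%), of 16 of 86 genes of the 11 families (18.6%) and of 772 of 10788 genes tested (7.16%). The repeat that the vitamin D receptor is known to bind, searched as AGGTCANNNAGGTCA and TGACCTNNNTGACCT, was in 0 windows of genes tested and 2 of all 27025, which says only that these letters are not in these windows. A match describes letters, not binding. The stretches around the match are given, 5' to 3' on the gene's strand, for 1 gene each of 6 families, to let the element be compared between genes whose levels rose. Capitals mark each ISRE core, and overlapping cores run together.

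Oas1g: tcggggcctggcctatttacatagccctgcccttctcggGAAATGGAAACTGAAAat
Ifit3: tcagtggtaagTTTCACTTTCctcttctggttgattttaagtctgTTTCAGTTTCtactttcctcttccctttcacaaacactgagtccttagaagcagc
Isg15: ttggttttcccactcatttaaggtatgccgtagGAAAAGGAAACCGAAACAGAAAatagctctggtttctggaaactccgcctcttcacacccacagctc
Ifi206: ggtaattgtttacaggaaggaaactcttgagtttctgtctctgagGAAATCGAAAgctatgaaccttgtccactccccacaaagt
Bst2: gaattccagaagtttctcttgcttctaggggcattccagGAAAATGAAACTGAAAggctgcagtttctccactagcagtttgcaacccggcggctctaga
Gbp2: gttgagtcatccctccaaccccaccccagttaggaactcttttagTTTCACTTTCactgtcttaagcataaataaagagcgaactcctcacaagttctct

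The stretch of Oas1g is chr5:120887614-120887670 on the minus strand, that of Ifit3 chr19:34583362-34583461 on the plus strand and that of Isg15 chr4:156200830-156200929 on the minus strand. The stretch of Ifi206 is chr1:173491319-173491403 (minus), that of Bst2 chr8:71537542-71537641 (minus) and that of Gbp2 chr3:142620559-142620658 (plus). Isg15 carries 3 cores that overlap, Oas1g and Bst2 carry 2 that overlap and Ifit3 carries 2 apart from each other. The core nearest the start ended 2 bases before it in Oas1g and 114 bases before it in Bst2. Ifi206 (174, 156, 93.97 and 109.7 CPM in Vdr-cKO libraries, against 18.1, 21.8, 20.9 and 16.9 CPM in control libraries, log2 fold change 2.79) and Gbp2 each carry 1. Among genes whose level rose without a core in the window were Irf7, Slfn4, Oasl1, H2-K1, Tap1 and Axl. Of the genes that fell most, Ranbp3l and Asgr2 had one, and the call of Asgr2 (adjusted p = 0.154 without control replicate 4, 7 of 8 omissions) was lost in fits without 1 library.

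Antigen presentation by MHC class I, the route by which cells show internal peptides to CD8 T cells, was higher at several steps. Among class I molecules 12 of 15 tested rose (median 1.16), at high absolute levels. H2-K1 had 1614, 1762, 2648 and 2603 CPM in Vdr-cKO libraries, against 789, 955, 1081 and 910.3 CPM in control libraries (log2 fold change 1.22, adjusted p = 0.00163 from edgeR), and H2-D1 had 2082, 1876, 2873 and 2698 CPM in Vdr-cKO libraries, against 989.9, 1304, 1308 and 1202 CPM in control libraries (log2 fold change 1.00, adjusted p = 0.00228 from edgeR). B2m, the shared light chain, had 2411, 3064, 3645 and 4384 CPM in Vdr-cKO libraries, against 1658, 2107, 2227 and 2157 CPM in control libraries (log2 fold change 0.74, adjusted p = 0.0305 from edgeR). For these 3 genes replicates 3 and 4 of Vdr-cKO were the highest, whereas replicates 1 and 2 were the highest for IFIT genes. The nonclassical molecule H2-T23 (ENSMUSG00000067212, chromosome 17 of GRCm38 from 36029773 to 36032855), known as Qa-1, had 562, 465, 508 and 518 CPM in Vdr-cKO libraries, against 157, 183, 174 and 179.6 CPM in control libraries with little spread (log2 fold change 1.58, adjusted p = 3.93e-06 from edgeR), and H2-T22 rose by 1.8 and H2-Q4 by 1.55. Class I genes are near-identical copies and their reads may be split. Of 14 genes that supply and load peptides 9 rose and 1 fell. The peptide transporter Tap1 had 468, 335, 347 and 337 CPM in Vdr-cKO libraries, against 127, 135, 147 and 118 CPM in control libraries (log2 fold change 1.51, adjusted p = 4.95e-05 from edgeR). The immunoproteasome subunit Psmb9 had 114, 88.5, 92.2 and 92.5 CPM in Vdr-cKO libraries, against 44.4, 47.3, 49.97 and 42.1 CPM in control libraries (log2 fold change 1.09, adjusted p = 9.67e-05 from edgeR), and the proteasome activators Psme1 and Psme2 rose by 0.82 and 0.82. The chaperone Canx was the exception, with 667, 619, 584 and 594 CPM in Vdr-cKO libraries, against 801, 767, 740.1 and 777 CPM in control libraries (log2 fold change -0.31, adjusted p = 0.042 from edgeR). Leaving out 1 library ended the call of B2m (adjusted p = 0.085 without control replicate 4, 6 of 8 omissions) and of Canx (adjusted p = 0.121 without Vdr-cKO replicate 3, 7 of 8 omissions), by edgeR.

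Class II presentation and costimulation moved less, with 3 of 17 genes tested higher and a median of 0.22. H2-Ab1 had 415, 349.9, 325 and 305 CPM in Vdr-cKO libraries, against 241, 253, 268 and 283 CPM in control libraries (log2 fold change 0.43, adjusted p = 0.0355 from edgeR). The invariant chain Cd74 had 1007, 827, 763 and 740.3 CPM in Vdr-cKO libraries, against 638, 654, 660.0 and 684 CPM in control libraries, and its log2 fold change of 0.35 did not pass in edgeR (adjusted p = 0.076, 0.0192 in DESeq2). Cd40, a costimulatory receptor, rose by 1.47 and Icosl, a ligand for T cells, by 0.46. Among inhibitory receptors and ligands 3 of 16 tested rose, namely Cd72 (log2 fold change 1.2, adjusted p = 7.8e-05 from edgeR), Lgals9 (log2 fold change 0.64, adjusted p = 0.00172 from edgeR) and Cd274, which encodes PD-L1 (log2 fold change 0.78, adjusted p = 0.0454 from edgeR). Calls that leaving out 1 library ended by edgeR were those of H2-Ab1 (adjusted p = 0.105 without control replicate 2, 7 of 8 omissions), Cd40 (adjusted p = 0.0624 without control replicate 3, 2 of 8 omissions), Icosl (adjusted p = 0.13 without control replicate 4, 5 of 8 omissions) and Cd274 (adjusted p = 0.126 without control replicate 3, 6 of 8 omissions).

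Chemokines, which attract monocytes, T cells and other leukocytes, changed member by member. Of 11 CC chemokines tested 5 rose and the others were not called. Ccl5 had 32.3, 17.7, 32.6 and 31.05 CPM in Vdr-cKO libraries, against 5.86, 5.82, 5.83 and 5.004 CPM in control libraries (log2 fold change 2.35, adjusted p = 4.96e-05 from edgeR). Ccl2, the main ligand of CCR2, had 153, 151, 102 and 92.1 CPM in Vdr-cKO libraries, against 54.02, 40.7, 36.6 and 35.98 CPM in control libraries (log2 fold change 1.59, adjusted p = 0.000452 from edgeR). Ccl7 and Ccl12 rose by 1.34 and 1.00, and Ccl8 by 0.69. No Vdr-cKO library overlapped the control libraries for any of these 5. By edgeR, the call of Ccl8 (adjusted p = 0.0838 without control replicate 3, 5 of 8 omissions) was the one lost on leaving out 1 library. T and NK cells also make Ccl5, and the sums of their markers are given above. Of 12 CXC chemokines tested 2 rose, both at low levels. Cxcl9, a ligand of CXCR3 on T cells, had 5.88, 4.83, 6.75 and 6.46 CPM in Vdr-cKO libraries, against 1.399, 1.92, 1.97 and 2.502 CPM in control libraries (log2 fold change 1.63, adjusted p = 0.00117 from edgeR), and the B cell chemokine Cxcl13 had 1.66, 1.33, 3.28 and 5.13 CPM in Vdr-cKO libraries, against 0.466, 0.198, 0.492 and 0.270 CPM in control libraries (log2 fold change 2.99, adjusted p = 0.00566 from edgeR). Cxcl10, another CXCR3 ligand, had 375, 192, 60.1 and 69.2 CPM in Vdr-cKO libraries, against 32.04, 29.2, 62.5 and 50.2 CPM in control libraries. Control replicate 3 lay above Vdr-cKO replicate 3, and the log2 fold change of 2.01 (standard error 0.52) missed the threshold in edgeR (adjusted p = 0.0518) and passed it in DESeq2 (adjusted p = 0.0317).

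Proinflammatory cytokines did not move together, with 3 of 12 tested higher and summed levels that overlapped (712 to 1959 CPM in Vdr-cKO libraries and 753 to 1720 CPM in control libraries). Il18 had 60.5, 52.4, 37.5 and 40.6 CPM in Vdr-cKO libraries, against 23.8, 25.5, 28.95 and 25.8 CPM in control libraries (log2 fold change 0.89, adjusted p = 0.00419 from edgeR). Il27 had 7.82, 4.38, 6.09 and 5.53 CPM in Vdr-cKO libraries, against 1.998, 2.98, 2.74 and 2.502 CPM in control libraries (log2 fold change 1.23, adjusted p = 0.00812 from edgeR), and Il15 rose by 0.61. The call of Il15 (adjusted p = 0.129 without control replicate 3, 6 of 8 omissions) was lost in fits without 1 library. Tnf had 133, 211, 87.1 and 61.4 CPM in Vdr-cKO libraries, against 89.9, 67, 96.3 and 75.9 CPM in control libraries, overlapping groups and a log2 fold change of 0.59 (SE 0.30, edgeR adjusted p = 0.319). Il12b stood at 0.692, 1.27, 2.03 and 1.07 CPM in Vdr-cKO libraries, against 1.07, 0.728, 1.26 and 1.62 CPM in control libraries, and Il12a did not pass the filter on low counts. In the TNF superfamily 4 of 17 rose, among them Tnfsf8 at 13.7, 14.5, 17.97 and 14.4 CPM in Vdr-cKO libraries, against 4.796, 5.62, 6.04 and 4.598 CPM in control libraries (log2 fold change 1.54, adjusted p = 0.000149 from edgeR) and Tnfsf10, which encodes TRAIL (log2 fold change 1.59, adjusted p = 0.00359 from edgeR). Of 15 NF-kappaB subunits and inhibitors tested 0 passed in either direction by edgeR, DESeq2 or limma-voom, where 3.24% of all genes rose by edgeR. In that list 13 of the 15 had a positive log2 fold change, with a median of 0.19, and 4 were higher at an unadjusted p under 0.05 (10.1% of all genes).

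Cell surface genes of other families changed member by member. Ly6a (ENSMUSG00000075602, chromosome 15 of GRCm38 from 74994877 to 74998031), the stem cell antigen Sca-1, had 159, 163, 169.6 and 155 CPM in Vdr-cKO libraries, against 23.8, 23.5, 30.99 and 22.5 CPM in control libraries, the smallest adjusted p of all genes tested, with a log2 fold change of 2.7 ± 0.11 (SE) and an adjusted p of 7.07e-07 from edgeR. Ly6e had 2263, 2709.6, 2669 and 3076 CPM in Vdr-cKO libraries, against 1129, 1111, 1332 and 1134 CPM in control libraries (log2 fold change 1.2, adjusted p = 0.000133 from edgeR). Ly6c2 had 355, 450.3, 147 and 183 CPM in Vdr-cKO libraries, against 35.4, 18.4, 22.2 and 19.5 CPM in control libraries (log2 fold change 3.58, adjusted p = 0.000185 from edgeR). The Fc receptors Fcgr1 and Fcgr4, which bind IgG, rose by 1.04 and 1.02, and the sialic acid lectin Siglec1 had 736, 763, 653 and 527 CPM in Vdr-cKO libraries, against 175, 276, 258 and 270.2 CPM in control libraries (log2 fold change 1.47, adjusted p = 0.000251 from edgeR). Among 17 complement genes tested 4 rose. The classical pathway component C4b had 461, 504, 847 and 702 CPM in Vdr-cKO libraries, against 220.2, 289, 319.9 and 285 CPM in control libraries (log2 fold change 1.19, adjusted p = 0.00342 from edgeR) and factor B of the alternative pathway, Cfb, had 6.99, 4.26, 6.21 and 5.33 CPM in Vdr-cKO libraries, against 0.666, 0.794, 1.83 and 0.744 CPM in control libraries (log2 fold change 2.51, adjusted p = 0.000958 from edgeR).

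Genes of cell death and of the p53 response were higher in part. Among genes of necroptosis, pyroptosis and apoptosis 6 of 20 rose, against 3.24% of all genes. They included Xaf1, an antagonist of the apoptosis inhibitor XIAP, at 197, 202, 166 and 181 CPM in Vdr-cKO libraries, against 51.4, 63.96, 59.5 and 63.1 CPM in control libraries (log2 fold change 1.66, adjusted p = 5.47e-06 from edgeR), Mlkl, the executor of necroptosis, at 33.2, 23.6, 13.97 and 13.3 CPM in Vdr-cKO libraries, against 8.93, 7.74, 7.94 and 8.93 CPM in control libraries (log2 fold change 1.34, adjusted p = 0.0133 from edgeR) and Gsdmd, the pore former of pyroptosis (log2 fold change 0.45, adjusted p = 0.00287 from edgeR). Of 14 p53 targets tested 6 rose (median 0.40), against the same share of all genes. Cdkn1a, the cell cycle inhibitor p21, had 379, 323, 297 and 281 CPM in Vdr-cKO libraries, against 176, 118, 146 and 134 CPM in control libraries (log2 fold change 1.17, adjusted p = 0.000322 from edgeR). Phlda3, an inhibitor of AKT, had 7.47, 8.004, 12.1 and 12.7 CPM in Vdr-cKO libraries, against 1.67, 2.65, 2.53 and 2.23 CPM in control libraries (log2 fold change 2.16, adjusted p = 0.000286 from edgeR), and Bbc3, the proapoptotic protein PUMA, rose by 1.39 and the nuclease Aen by 0.83. The groups did not overlap for any of these 4. Among 25 genes of mitosis 1 fell (1.64% of all genes), the cytokinesis protein Anln (log2 fold change -0.65, adjusted p = 0.0382 from edgeR), and 1 had a positive log2 fold change (median -0.30). At an unadjusted p under 0.05 in edgeR, 8 mitosis genes were lower (9.54% of all genes) and 0 higher. Groups did not overlap for 6 lower genes (7.51% of all genes), and DESeq2 called 4 lower and limma-voom 0. Leaving out 1 library ended the call of Anln (adjusted p = 0.0944 without Vdr-cKO replicate 3, 6 of 8 omissions) and, above, that of Mlkl (adjusted p = 0.0534 without control replicate 3, 2 of 8 omissions), by edgeR. Mki67 had 181, 184, 189.7 and 196 CPM in Vdr-cKO libraries, against 434, 247, 257 and 211 CPM in control libraries (adjusted p = 0.0963 from edgeR, 0.0234 from DESeq2), and its highest value was that of control replicate 1. Chosen after its values were seen, its change after sham was 1.65 and its interaction -2.28 (adjusted p = 0.000457 from edgeR), so the estimates for this proliferation marker had opposite signs in the surgeries, with that after MCAO not passing in edgeR. Of 25 DNA replication genes 0 passed in either direction by edgeR, DESeq2 or limma-voom, with 2 higher and 1 lower gene at an unadjusted p under 0.05 in edgeR.

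Homeostatic and disease-associated genes of microglia were called in unlike shares. Of 29 homeostatic genes tested 1 passed in edgeR, the fall of Cx3cr1. The log2 fold change was negative for 21 of them and positive for 8 (median -0.11), and groups did not overlap for 5 lower and 2 higher genes (7.51% and 6.05% of all genes). Unadjusted p-values under 0.05 were found for 2 higher and 6 lower genes (10.1% and 9.54% of all genes), and DESeq2 gave 1 higher and 5 lower calls. P2ry12, a purine receptor of resting microglia, had 792, 1141, 1113 and 1449 CPM in Vdr-cKO libraries, against 1295, 1471, 1389 and 1358 CPM in control libraries (log2 fold change -0.28, adjusted p = 0.346 from edgeR). Of 30 disease-associated genes 6 rose, against 3.24% of all genes, and 0 fell. Their median was -0.06, with 13 positive and 17 negative log2 fold changes. Groups did not overlap for 7 higher genes of this list (6.05% of all genes), and DESeq2 called 8 higher and 2 lower. Axl, a receptor for apoptotic cells that is also interferon-induced in macrophages, had 572, 494, 544 and 570.1 CPM in Vdr-cKO libraries, against 124, 187, 177 and 179 CPM in control libraries (log2 fold change 1.72, adjusted p = 2.33e-05 from edgeR). Cd52 (log2 fold change 0.93), Itgax (log2 fold change 0.42), B2m, Lgals3 (log2 fold change 0.5) and Csf1 made up the others of the 6. The call of Lgals3 (adjusted p = 0.152 without control replicate 3, 5 of 8 omissions) was lost in fits without 1 library. Axl's relative Mertk stood at 482, 525, 676 and 716 CPM in Vdr-cKO libraries, against 542, 659.9, 714 and 675 CPM in control libraries (adjusted p = 0.755). Lgals3bp, a secreted galectin-binding glycoprotein, was among the genes with the largest difference in level, at 1523, 1874, 2216 and 2426 CPM in Vdr-cKO libraries, against 618, 837, 877 and 805 CPM in control libraries (log2 fold change 1.37, adjusted p = 0.00037 from edgeR). Of 20 anti-inflammatory and repair genes 1 fell. Mrc1, the mannose receptor CD206, had 217, 237, 212 and 208 CPM in Vdr-cKO libraries, against 374, 353, 341 and 388 CPM in control libraries (log2 fold change -0.72, adjusted p = 0.000239 from edgeR).

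Genes that fell were mostly of small change, and 21 of the 250 stood in a list. Mitochondrially encoded transcripts fell in 7 of 12 tested (median -0.72), the greatest share of any list. mt-Co1 had 5755, 6519.9, 5849 and 7266 CPM in Vdr-cKO libraries, against 9108, 8359, 9806 and 9517 CPM in control libraries (log2 fold change -0.52, adjusted p = 0.0226 from edgeR). mt-Nd4 had 782, 708, 737 and 1021 CPM in Vdr-cKO libraries, against 1433, 1224, 1567 and 1565 CPM in control libraries (log2 fold change -0.82, adjusted p = 0.00364 from edgeR). As a share of all counts these genes made up 1.14, 1.31, 1.20 and 1.54% in Vdr-cKO libraries and 2.04, 1.75, 2.19 and 2.08% in control libraries (p = 0.0286 by a 2-sided exact permutation test, which cannot give a smaller one here). Gm29216 and Gm10222, lower DEGs on chromosome 1, are unprocessed pseudogenes of mitochondrial sequence and may share these reads. In bulk libraries, fewer cells of a type and less RNA per cell cannot be told apart. Handling of lipids changed at single genes, since 2 of 14 efflux genes rose and 2 fell. The cholesterol exporter Abca1 had 1264, 1063, 1126 and 1092 CPM in Vdr-cKO libraries, against 1523, 1938, 1914 and 2191 CPM in control libraries (log2 fold change -0.72, adjusted p = 0.00359 from edgeR), and Apob, the core protein of lipoproteins, had 6.85, 6.29, 6.51 and 3.33 CPM in Vdr-cKO libraries, against 19.7, 27.98, 14.6 and 14.5 CPM in control libraries (log2 fold change -1.72, adjusted p = 0.00249 from edgeR). Npc2, which moves cholesterol out of lysosomes, rose by 0.57, as did Ch25h, a maker of an oxysterol that is interferon-induced, by 0.97. Selenop, a selenium transport protein, had 923, 999, 1109 and 1205 CPM in Vdr-cKO libraries, against 1575, 2081, 2066 and 2311 CPM in control libraries (log2 fold change -0.91, adjusted p = 0.00163 from edgeR), and the scavenger receptor Stab1 had 2682, 2086, 2316 and 2058 CPM in Vdr-cKO libraries, against 2995, 3594, 3293 and 3777 CPM in control libraries (log2 fold change -0.56, adjusted p = 0.0147 from edgeR). Rgs7bp, which anchors a regulator of G protein signalling to the membrane, had 8.85, 10.04, 7.22 and 7.06 CPM in Vdr-cKO libraries, against 18.6, 15.9, 18.98 and 19.7 CPM in control libraries (log2 fold change -1.13, adjusted p = 0.000811 from edgeR). The glutamate transporter gene Slc1a3 had 99.8, 76.3, 94.3 and 104 CPM in Vdr-cKO libraries, against 166, 478, 118 and 496 CPM in control libraries (log2 fold change -1.73, adjusted p = 0.0283 from edgeR), and control replicates 2 and 4 set most of that difference. The other 9 of 10 astrocyte markers found summed to 32.8 to 40.1 CPM in Vdr-cKO libraries and 32.0 to 40.7 CPM in control libraries, so that the groups overlapped. Gm37310 lies within Slc1a3 on the same strand, so their reads may be shared, and Ranbp3l lies near Slc1a3 on chromosome 15. Both were likewise highest in control replicates 4 and 2. Calls that leaving out 1 library ended by edgeR were those of mt-Co1 (adjusted p = 0.0863 without control replicate 3, 3 of 8 omissions), Stab1 (adjusted p = 0.0633 without control replicate 4, 2 of 8 omissions), Ch25h (adjusted p = 0.129 without control replicate 4, 5 of 8 omissions), Slc1a3 (adjusted p = 0.0936 without control replicate 4, 6 of 8 omissions), Gm37310 (adjusted p = 0.0589 without control replicate 2, 5 of 8 omissions) and Gm10222 (adjusted p = 0.0603 without control replicate 4, 2 of 8 omissions).

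Several programmes gave no call in either direction by edgeR. Of 22 cathepsin and lysosome genes, 20 genes of glycolysis and hypoxia, 20 of cholesterol synthesis, 14 NRF2 targets and 14 partners and enzymes of the vitamin D pathway, 0 passed. Their median log2 fold changes were -0.13, 0.12, 0.08, 0.00 and 0.05, in that order. DESeq2 called 2 lower in the cathepsin list and 2 higher and 1 lower among NRF2 targets, limma-voom called none, and at an unadjusted p under 0.05 each list had 3 to 6 genes in edgeR. In the vitamin D list these were 3 lower and 0 higher genes (9.54% and 10.1% of all genes). Groups did not overlap for 3 lower and 0 higher (7.51% and 6.05%), while 9 log2 fold changes were positive and 5 negative. The summed level of that list was 2328 to 2482 CPM in Vdr-cKO libraries and 2520 to 2605 CPM in control libraries. The receptor partner Rxra had 125, 100.2, 119.5 and 122 CPM in Vdr-cKO libraries, against 109, 158, 148 and 163 CPM in control libraries (log2 fold change -0.29, adjusted p = 0.223 from edgeR). Of 17 Toll-like receptor genes 3 rose, the double-stranded RNA sensor Tlr3 (log2 fold change 0.87, adjusted p = 0.000239 from edgeR), the DNA sensor Tlr9 (log2 fold change 0.53) and Tlr12 (log2 fold change 0.68), and the adaptor Myd88 (log2 fold change 0.39) did not pass in edgeR (adjusted p = 0.0887, 0.0437 in DESeq2). The call of Tlr12 (adjusted p = 0.0685 without control replicate 3, 3 of 8 omissions) was lost in fits without 1 library.

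The 4 Vdr-cKO libraries differed among themselves more than the control libraries did in the interferon-induced families. Replicate 1 held the highest value of the 4 for 87 of the 112 family genes tested and for 4652 of 15286 genes in all, and replicate 3 held the lowest for 67 of the 112. Summed over the families, levels were 31768, 25586, 16265 and 17095 CPM in Vdr-cKO libraries and 7752, 7987, 7864 and 7791 CPM in control libraries. Markers of infiltrating monocytes were likewise higher in Vdr-cKO replicates 1 and 2 than in replicates 3 and 4 in sum. Of 16 such markers 3 rose (Ly6c2, Plac8 and Ms4a4c) and 1 fell (F13a1), and Vdr-cKO replicate 1 was highest for 13 of the 16. Their summed level was 5837, 4583, 2735 and 2433 CPM in Vdr-cKO libraries and 5127, 3918, 3845 and 4140 CPM in control libraries, so that the groups overlapped. Plac8 had 364, 274, 106 and 114 CPM in Vdr-cKO libraries, against 44.03, 29.8, 34.2 and 28.9 CPM in control libraries (log2 fold change 2.66, adjusted p = 0.0015 from edgeR), and Ccr2, the receptor that defines these cells, had 307, 328, 153 and 168 CPM in Vdr-cKO libraries, against 214, 132, 135 and 158 CPM in control libraries (log2 fold change 0.6, adjusted p = 0.216 from edgeR). With a score of the monocyte markers without Ly6c2 as a covariate, 224 higher DEGs were called, of which 193 were among the 256, and 91 family genes rose. The score keeps Plac8 and Ms4a4c, which rose with genotype, so it does not measure monocytes apart from the genotype change. Without Vdr-cKO replicates 1 and 2 the higher DEGs numbered 198, with 173 among the 256, and 90 family genes rose. Border macrophage markers were lower in sum, at 3089 to 3851 CPM in Vdr-cKO libraries and 4464 to 5547 CPM in control libraries, with 3 of 12 fallen (Mrc1, Stab1 and F13a1) and 1 risen (Ccl8). The members went both ways, 6 with a positive and 6 with a negative log2 fold change (median -0.05), and Stab1 made up most of the sum. Without Stab1 and Mrc1 the sum was 797 to 953 CPM in Vdr-cKO libraries and 1081 to 1382 CPM in control libraries. Their part in the changes of those genes was not tested.

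**Figure D4:**
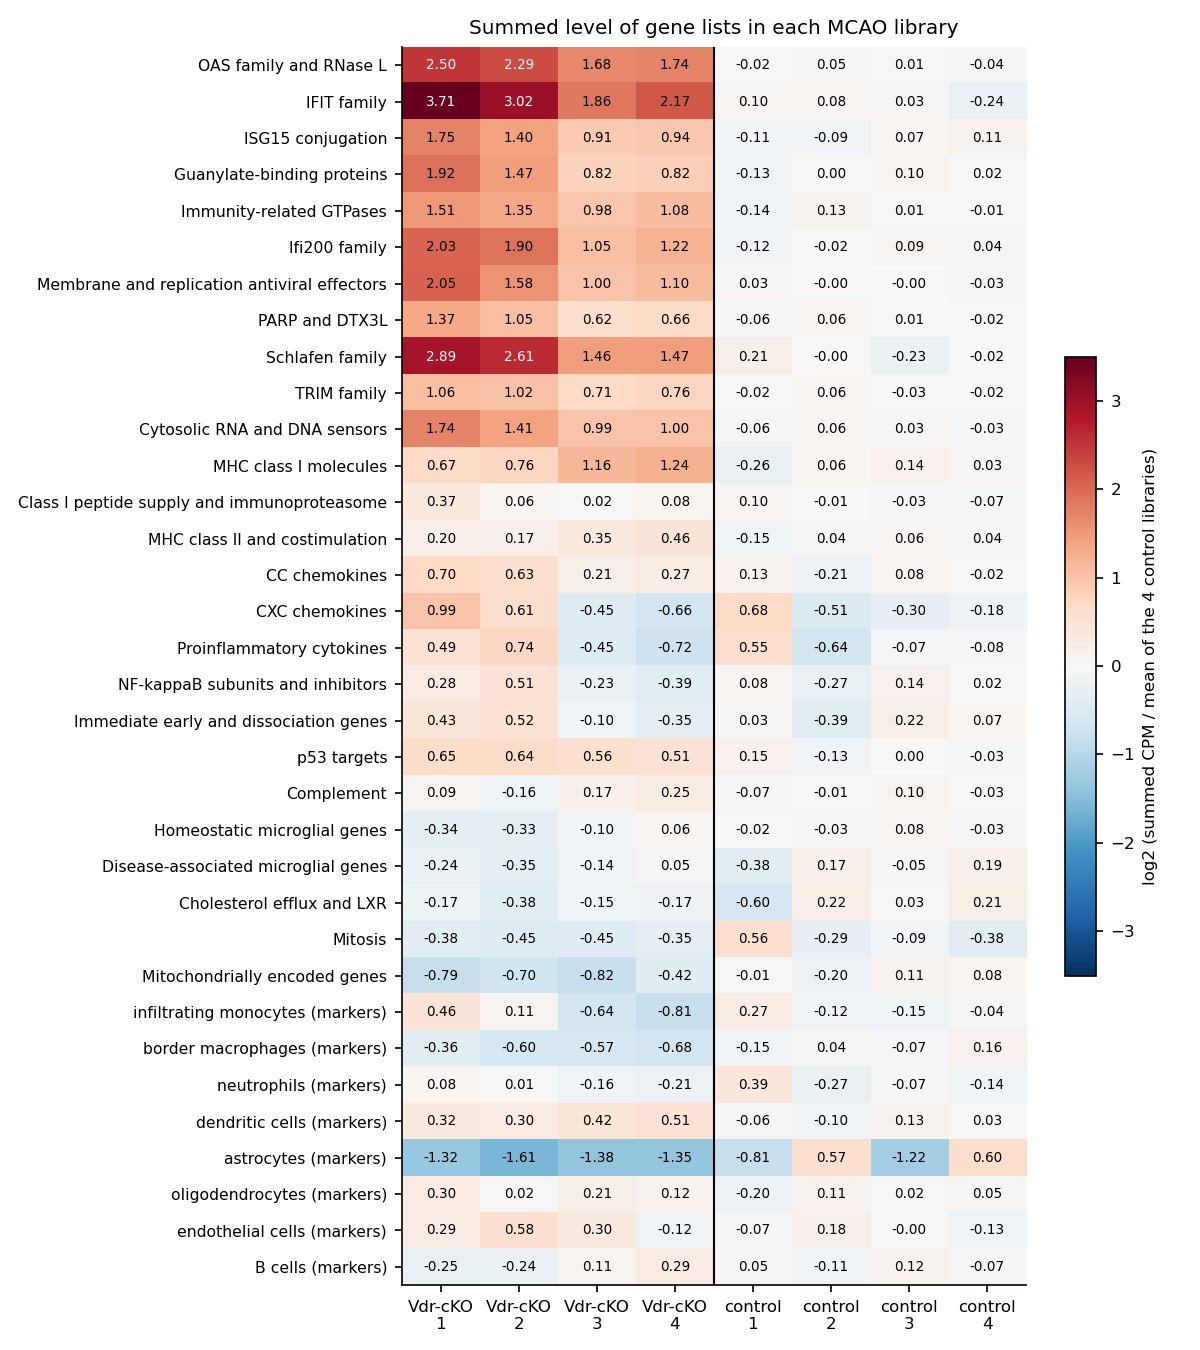
Summed level of gene lists in each MCAO library as log2 of the ratio to the mean of the 4 control libraries, Vdr-cKO replicates left of the line and control replicates right of it, with marker lists at the bottom. Every interferon-induced family is above 0 in all 4 Vdr-cKO libraries and highest in replicate 1 (IFIT family 3.71, 3.02, 1.86 and 2.17), while MHC class I molecules are highest in replicate 4 (0.67, 0.76, 1.16 and 1.24) and monocyte markers run on both sides of 0.

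Some of the genes with the widest spread among Vdr-cKO libraries had no call. Cxcl2, a neutrophil chemokine, had 1057, 779.9, 258 and 152 CPM in Vdr-cKO libraries, against 980.0, 229, 293 and 259 CPM in control libraries and Vcan, a proteoglycan of monocytes, had 143, 86.5, 32.7 and 19.99 CPM in Vdr-cKO libraries, against 82.8, 21.3, 26.8 and 31.6 CPM in control libraries. Control replicate 1 was high for both, beside Vdr-cKO replicates 1 and 2, and adjusted p-values were 0.798 and 0.484 from edgeR. Immediate early and dissociation genes, which respond to tissue handling, summed to 4372 to 7968 CPM in Vdr-cKO libraries and 4251 to 6464 CPM in control libraries, and 1 of 18, Hspa1a, rose (log2 fold change 0.98). That call was lost in fits without 1 library, as for Hspa1a (adjusted p = 0.122 without control replicate 4, 6 of 8 omissions).

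The change with genotype after MCAO was set against that after sham surgery in 1 fit of all 16 libraries with an interaction term. Of 17335 genes tested, the change was more positive after MCAO for 243 (1.40%) and more negative for 199 (1.15%). Of the 256 higher DEGs after MCAO, 156 had an interaction at an adjusted p under 0.05, 155 of them in the positive direction. These DEGs were picked on MCAO libraries that the interaction also uses, so the selection favours a positive interaction. In a fit of the sham libraries alone (3 and 5), 8 of 235 DEGs tested rose as well. Over all genes, 27 of 14728 tested there were called in the direction of their MCAO change, so few calls after sham do not show absence of change. The median log2 fold change of these DEGs after sham was 0.13. Irf7 changed by 3.28 after MCAO and 0.49 after sham, an interaction of 2.77 ± 0.29 in log2 units (SE, edgeR adjusted p = 4.96e-05). Ifi44 changed by 3.16 after MCAO and -0.01 after sham (interaction 3.15, adjusted p = 0.000848 from edgeR), and Isg15 by 3.34 and 0.08 (interaction 3.25, adjusted p = 0.00546). For Ifit1bl1 the interaction of 3.39 did not pass (adjusted p = 0.209). Of the 15 genes at the top of the ranking, 8 passed. Cx3cr1 fell in both surgeries, by 1.29 after MCAO and 1.16 after sham, with an interaction of -0.16 (SE 0.22, edgeR adjusted p = 0.804). Slc1a3 fell after MCAO and rose after sham (1.96, interaction -3.72, adjusted p = 0.000186 from edgeR), as did Ranbp3l (2.02 after sham, interaction -4.68).

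**Figure D5:**
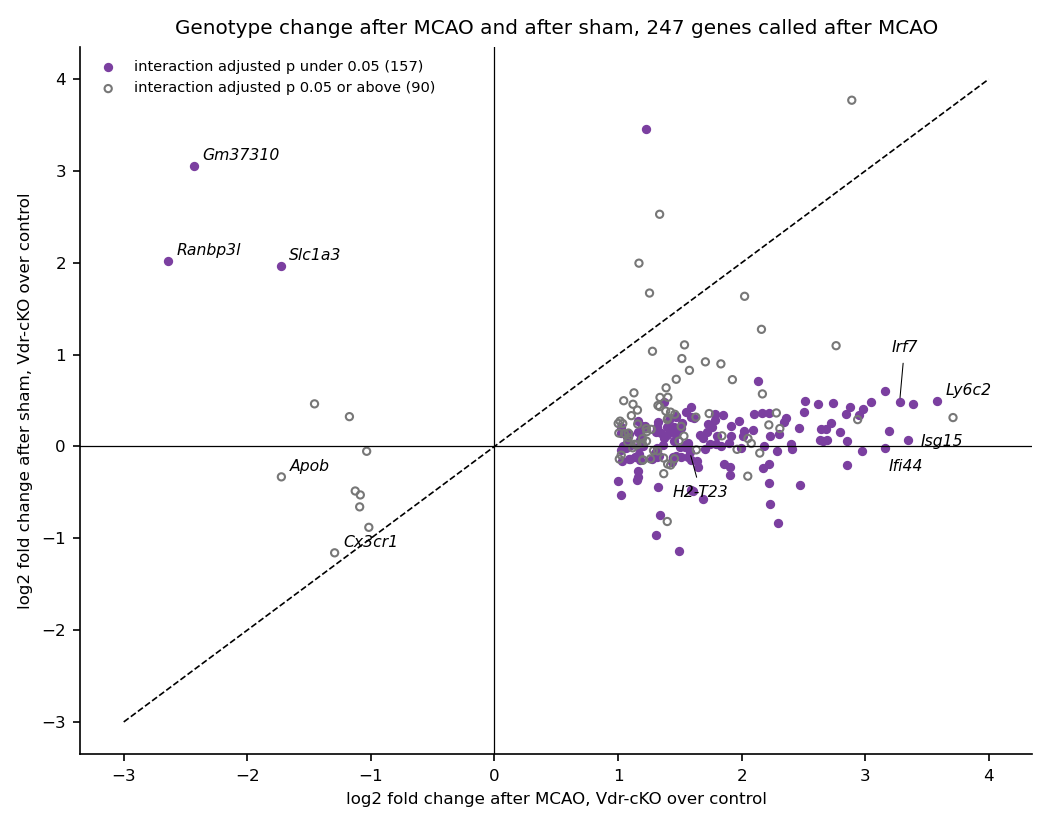
Log2 fold change of Vdr-cKO over control after MCAO (horizontal axis) and after sham (vertical axis) for the 247 DEGs after MCAO that were also tested after sham, filled where the interaction had an adjusted p under 0.05 (157 genes). On the dashed line both changes are equal. Most higher DEGs lie near 0 on the vertical axis, Cx3cr1 lies near the dashed line, and Slc1a3, Ranbp3l and Gm37310 lie in the quadrant of opposite signs.

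Genes beside the 2 engineered loci were looked at because a mouse line can differ from its controls around a modified locus. Within 5 Mb of the start of Cx3cr1, in the positions given with the counts, 6 of 86 genes tested were called (6.98%, against 4.87% of all genes). They were Xcr1, a dendritic cell chemokine receptor, with 3.18, 2.03, 2.57 and 1.999 CPM in Vdr-cKO libraries, against 0.333, 0.265, 0.492 and 0.338 CPM in control libraries (log2 fold change 2.76, adjusted p = 0.000452 from edgeR), Gm26797 (log2 fold change 2.41, adjusted p = 0.000133 from edgeR), and Fyco1, Stt3b, Itga9 and Azi2 with log2 fold changes between -0.4 and 0.43. Within 5 Mb of Vdr, 4 of 118 were called (3.39%), namely Itgb7 (log2 fold change 1.02), Twf1, Slc38a1 and Ano6. Leaving out 1 library ended the calls of Stt3b (adjusted p = 0.106 without Vdr-cKO replicate 4, 7 of 8 omissions), Itga9 (adjusted p = 0.151 without control replicate 4, 7 of 8 omissions), Azi2 (adjusted p = 0.132 without control replicate 2, 6 of 8 omissions), Slc38a1 (adjusted p = 0.138 without control replicate 4, 7 of 8 omissions) and Ano6 (adjusted p = 0.139 without control replicate 4, 6 of 8 omissions), by edgeR.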

How the data were processed

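RNA-seq gave 16 libraries of brain microglia/macrophages, isolated with CD11b beads by the study's methods or sorted as CD11b+CD45int cells by the descriptions given to GEO, of which the 8 libraries taken after MCAO are the subject here. The authors deposited whole-number counts per gene for every library. The submitters' processing notes name bcl2fastq, TopHat, HISAT2 2.1.0, limma and the GRCm38 build, and the counting tool, annotation and strand setting are not given in the sources used here. Replicates were not pooled. Gene positions printed here were taken from GENCODE M21 on GRCm38 by Ensembl ID. Distances to Cx3cr1 and Vdr used the positions given with the counts. Those had the start and end of M21 for 679 of 31473 IDs, so they appear to be of another build.

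Genes with low counts were removed with filterByExpr, and counts were normalised by TMM and tested with the quasi-likelihood test of edgeR 4.0.16 in R 4.3.3, with group as the term and only the MCAO libraries in the fit. Standard errors are the absolute log2 fold change over the square root of F, and p-values were adjusted over all 15286 genes by Benjamini-Hochberg. An interaction of genotype and surgery was fitted on 16 libraries. Single values per library (the Vdr and Cx3cr1 CPM, the mitochondrial share) were compared by a 2-sided exact permutation test. Alternatives were other size factors, other filters, DESeq2 1.42.0, limma-voom 3.58.1, 1 fit of all libraries, a replicate block, a test for changes beyond 1 on the log2 scale, leaving out each library, leaving out Vdr-cKO replicates 1 and 2 together, and a monocyte score as covariate. The test was tested on simulated data.

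Genes were named by rule: Vdr and Cx3cr1, up to 15 DEGs with the largest and 12 called genes with the smallest fold change, up to 10 with the largest difference of mean CPM each way, up to 5 per list by adjusted p, selected cytokines, the 8 with the widest spread among Vdr-cKO libraries at a mean of at least 10 CPM, and called genes within 5 Mb of Cx3cr1 or Vdr. Csf1 completes a count. Results of some genes that the rule names are not reported here. The members and the lists of genes were chosen with earlier results of these data known. Whether replicate numbers pair the libraries is not given in the sources used here, and the fit reported treats them as unpaired.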

Additional observations from a re-analysis of the deposited data

Results flagged for a closer look

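In 21 of 318 groups of 4 MCAO libraries examined, 1 library stood apart, with a gap to the nearest library that exceeded Dixon's critical share of the group's range at the 95% level. Chance flags about 1 group in 20, so this number is near what chance gives. The ratio of gap to range is given for each.

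Among Vdr-cKO libraries, replicate 1 was the highest for Irf5 (0.955), Tap1 (0.909), Tlr9 (0.854) and Psmb9 (0.848). Replicate 2 was the highest for Ccl7 (0.892) and Slc38a1 (0.876) and the lowest for Ccl5 (0.896). Replicate 3 was the lowest for Psme1 (0.885), replicate 4 the lowest for Apob (0.841), and Ifng had its only count in replicate 4 (1).

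Among control libraries, replicate 1 was the highest for Cxcl2 (0.915), Ifit1bl1 (0.905), Stt3b (0.863), Anln (0.837) and Vcan (0.833) and the lowest for Axl (0.842). Replicate 3 was the highest for Ly6e (0.896), Cfb (0.89) and Ly6a (0.844). Replicate 2 was the highest for Irf9 (0.883), and replicate 4 the lowest for Ccl5 (0.952).

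The genotype change differed between MCAO and sham by the interaction test for 83 of 153 genes named here and tested in that fit, 74 with a positive and 9 with a negative interaction. Over all 17335 genes the shares were 1.40% positive and 1.15% negative. Most genes named here were picked by their values after MCAO, which the interaction also uses, so the selection favours these counts. Values are given for Mki67 and for the genes at both ends of the ranking by fold change. Among these the interaction was positive for Isg15 (3.25), Ifi44 (3.15), Ly6c2 (3.07), Slfn4 (3.00), Oasl1 (2.91), Gm6545 (2.79), Irf7 (2.77) and Rsad2 (2.54), on the log2 scale. It was negative for Mki67 (-2.28), Slc1a3 (-3.72), Ranbp3l (-4.68) and Gm37310 (-5.51), the last of which lies within Slc1a3 and may share its reads. The causes were not tested.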

How the results depend on the processing

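The higher DEGs numbered 198 to 322 under all alternatives but one, and the members of the 11 interferon-induced families that rose numbered 85 to 99. The exception was the test against a log2 fold change of 1, which asks for a change beyond that size, with 74 DEGs higher, 0 lower (12 in the fit reported) and 38 family genes. Leaving out 1 library gave 103 to 257 genes lower by adjusted p alone, against 250 with all, and DESeq2 gave 517. For the interaction, DESeq2 gave 398 genes more positive and 350 more negative after MCAO, and leaving out 1 library gave 166 to 368 and 105 to 358. The 368 and the 358 came without sham control replicate 3, and counts of 105 and 111 genes more negative came without sham Vdr-cKO replicates 1 and 2, each in turn. The causes were not tested. Searched over the whole promoter window, the ISRE core was in 3.97% of genes tested and 30.5% of higher DEGs.

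The Vdr difference of 1.28 CPM had the opposite sign without Vdr-cKO replicate 1 (-0.25 CPM, over all omissions -0.25 to 2.01), and its log2 fold change was then -0.14 (up to 0.89 over the omissions), with -0.46 under the monocyte covariate and -0.58 without Vdr-cKO replicates 1 and 2. The same 2 replicates left out turned Tnf (-0.14), Mertk (0.12), Cxcl2 (-1.09) and Vcan (-0.61), and the covariate turned Mertk (0.086), Cxcl2 (-0.82) and Vcan (-0.40). Cxcl2 also turned without Vdr-cKO replicate 1 (-0.14, up to 1.12 over the omissions), and Il12b without Vdr-cKO replicate 3 (-0.19, up to 0.33) or control replicate 2 (-0.04). None of these was called. Of 136 called genes with values, 0 changed direction under the alternatives run, and between 0 and 26 lost their call, with 87 under the test against a log2 fold change of 1.

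Whether replicate numbers pair the libraries is not given in the sources used here. Same-numbered deviations correlated at 0.38, -0.14, 0.06 and 0.04, and 1 of 4 libraries, replicate 1, matched its own number best. Such correlations cannot settle how the libraries were handled. With the replicate block, 263 DEGs were higher and 13 lower, 509 genes rose, 213 fell, and 93 family genes rose. The interferon genes, none of which passed the filter, could not be compared at this depth, and genes under about 1 CPM rest on few counts. Whether the interferon genes were not transcribed or were missed at this depth was not tested.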
